A study of Mus musculus with 22 samples.

Results

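Interferon and interleukin-10 (IL-10) receptors with their Janus kinases were followed in 2 brain regions, cortex and hippocampus, of Ts1Cje mice and their wild-type (WT) littermates. Ts1Cje models Down syndrome in the mouse: a distal segment of chromosome 16 is present in 3 copies instead of 2, the extra copy being joined to chromosome 12. The 9 genes were chosen by name and read from the features that carry their Entrez gene numbers, out of 21225 features on the array. Ifnar1, Ifnar2, Ifngr2 and Il10rb lie in the triplicated segment, while Ifngr1, Il10ra, Jak1, Jak2 and Tyk2 lie on other chromosomes and are present in 2 copies in both genotypes. The animals were 6 Ts1Cje and 5 WT females of 8 to 10 weeks, born to Ts1Cje males that had been backcrossed to C57Bl/6J females. Each animal gave 1 Affymetrix mouse gene ST array of the cortex and 1 of the hippocampus (22 arrays in all). Values are log2 signals, so a difference of 1 is a doubling, and the number of arrays limits the precision. In bulk tissue, fewer cells of a type and less RNA per cell cannot be told apart.

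Cytokine receptors of class II are assembled from 2 kinds of chain at the cell surface. Type I interferons bind Ifnar1 with Ifnar2, interferon gamma binds Ifngr1 with Ifngr2, and IL-10 binds Il10ra with Il10rb, a chain that receptors for other IL-10 relatives and for type III interferons share. The chains have no enzymatic activity of their own and carry Janus kinases on their inner tails. Tyk2 sits on Ifnar1 and Il10rb, Jak1 on Ifnar2, Ifngr1 and Il10ra, and Jak2 on Ifngr2. The activated kinases phosphorylate STAT proteins, which enter the nucleus and switch on target genes. In the brain, type I interferon is sensed by most cell types, and Il10ra is known mainly from microglia, the resident macrophages.

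Arrays of WT animal 60 and Ts1Cje animal 64 stood apart in both regions. The spread of their log2 values over all features (SD) was 1.86 and 1.95 in cortex against 2.17 to 2.22 on the other arrays, and 2.06 and 1.98 in hippocampus against 2.14 to 2.19. Results for the 9 genes are therefore given with all 11 animals and, where the call or the size differs, without these 2. Region labels were checked against neuron markers on values centred on each array's median. Prox1, Fibcd1, Dsp and Lct were higher in hippocampus by 1.79 to 2.48, and Cux2, Rorb and Rasgrf2 were lower by a log2 of -1.22 to -0.83, while Fezf2 went against its list at 0.55. Of the 73 measured genes of the segment, 57 in cortex and 71 in hippocampus had a higher mean in Ts1Cje.

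The 4 triplicated chain genes are neighbours, in the order Ifnar2, Il10rb, Ifnar1 and Ifngr2 along chromosome 16 in RefSeq, with no other measured gene between them. RefSeq's promoter table for GRCm38.p6 held 7 of the 9 genes and no entry for Il10rb and Il10ra. Promoter sequences of the triplicated chains are shown because these genes differed together between genotypes, and that of Ifngr1 because it is the chain that pairs with Ifngr2 from 2 copies. Capitals mark GC boxes (GGGCGG) and gamma-activated sites (TTCNNNGAA, the letters that STAT dimers are known to bind), searched on both strands. All 4 stretches are on the plus strand and end at the base before the annotated gene, which leaves 67 bases for Ifnar1.
Ifnar2, chr16:91372533-91372782: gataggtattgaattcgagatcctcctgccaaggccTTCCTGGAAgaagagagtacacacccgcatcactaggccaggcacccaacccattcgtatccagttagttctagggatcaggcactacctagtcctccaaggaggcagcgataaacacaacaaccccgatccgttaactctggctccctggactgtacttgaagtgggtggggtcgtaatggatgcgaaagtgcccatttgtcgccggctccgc
Ifnar1, chr16:91484965-91485031: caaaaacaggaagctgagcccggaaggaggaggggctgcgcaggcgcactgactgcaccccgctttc
Ifngr2, chr16:91546809-91547058: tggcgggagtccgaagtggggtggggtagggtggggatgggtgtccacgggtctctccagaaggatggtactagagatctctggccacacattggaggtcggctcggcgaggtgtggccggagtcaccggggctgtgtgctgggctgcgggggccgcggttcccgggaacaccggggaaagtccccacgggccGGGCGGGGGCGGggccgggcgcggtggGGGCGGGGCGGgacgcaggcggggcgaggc
Ifngr1, chr10:19591699-19591948: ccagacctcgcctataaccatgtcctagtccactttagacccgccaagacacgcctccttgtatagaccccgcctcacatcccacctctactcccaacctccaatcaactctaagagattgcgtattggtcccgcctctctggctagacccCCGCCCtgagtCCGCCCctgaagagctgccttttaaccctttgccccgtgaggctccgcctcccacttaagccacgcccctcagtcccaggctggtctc

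Over the full windows of 250 bases, Ifngr2 held 4 GC boxes, overlapping matches included, Ifnar1 and Ifngr1 held 2 each, and Ifnar2 held 0. Neither Ifnar1 box lay wholly within its 67 printed bases, and the rest of its window falls in the annotated gene. GC boxes occurred in 32.7% of all 32851 promoter windows. Only Ifnar2, among the 7 windows, held a gamma-activated site, a motif present in 7.02% of windows. The interferon-stimulated response element (searched as 2 copies of GAAA separated by 2 bases, on both strands), present in 2.98% of windows, matched none of the 7. The matches describe letters in the windows and no binding. Bases G and C made up 74% of the Ifngr2 window, 65.6% of that of Ifnar1, 59.2% of that of Ifngr1 and 54% of that of Ifnar2, against a median of 52.4% over all windows.

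The first question was whether the extra copy raised the signal of each chain gene in cortex. All 4 triplicated chains had higher means in Ts1Cje cortex, by 0.48 to 0.59 on the log2 scale, and the arrays of the genotypes were separate or overlapped by a single animal. With all animals the adjusted test called none of the 4, and without animals 60 and 64 it called all of them.

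Ifnar1, which carries Tyk2 in the type I interferon receptor, read 8.99, 9.40, 9.39, 9.29 and 9.41 in the cortex of WT animals 60, 62, 65, 95 and 98. Its Ts1Cje signals ran from 9.46 (animal 64) through a median of 9.81 to 9.92, and all 6 lay above every WT array. The lowest array of each genotype was the one that stood apart overall. The log2 difference was 0.48 ± 0.103 (SE, n = 6 and 5; 1.40-fold; limma adjusted p = 0.587).

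Ifnar2, the chain that binds Jak1 and the STATs of the type I response, read 8.51 in WT animal 60 and 9.12 to 9.22 in the 4 other WT animals. In Ts1Cje it read 9.18 in animal 64 and 9.55 to 9.99 in the others, so only animal 64 fell within the WT range. Its log2 difference of 0.59 ± 0.159 (SE; limma adjusted p = 1.00) was the largest of the 4 in cortex and had the widest error.

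Ifngr2, the Jak2-binding chain of the interferon gamma receptor, read 10.45 in WT animal 60 and 10.81 to 10.89 in the other WT animals. All 6 Ts1Cje arrays were higher, from 11.17 (animal 64) to 11.45 (animal 63). The difference was 0.50 ± 0.0894 (SE; 1.42-fold; limma adjusted p = 0.340), the lowest p of the 9 genes in cortex.

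Il10rb, the shared second chain of the IL-10 receptor, read 7.49 in WT animal 60 and 8.02 to 8.11 in the other WT animals, against 8.40 to 8.59 in 5 Ts1Cje animals and 8.02 in animal 64. The difference was 0.49 ± 0.135 (SE; 1.40-fold; limma adjusted p = 1.00), with 5 of 6 Ts1Cje arrays above every WT array.

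**Figure D1:**
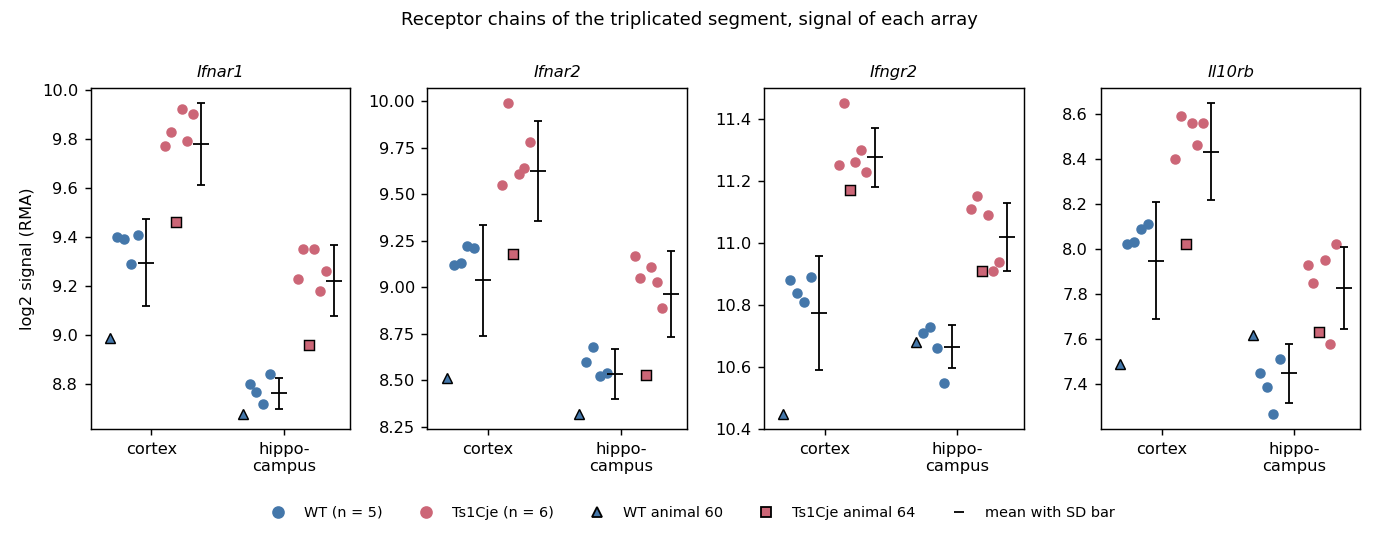
Log2 signal of the 4 receptor chain genes of the triplicated segment on each array (points; triangle, WT animal 60; square, Ts1Cje animal 64), by region and genotype, with the mean and SD as a bar to the right of each group (n = 5 WT, 6 Ts1Cje; vertical axes differ between panels and do not start at 0). Ts1Cje arrays lie above WT arrays except for single animals, and in cortex the lowest array of each genotype is animal 60 or animal 64.

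Over all 20239 genes tested in cortex, limma with Benjamini-Hochberg adjustment called 0.00494% at an adjusted p under 0.05, and 0 of the 9 genes followed here. At an unadjusted p under 0.05 all 4 triplicated chains were higher, and 0.889% of all genes were. Complete separation, every Ts1Cje array above every WT array, held for 2 of the 4 (Ifnar1 and Ifngr2) and for 0.232% of all genes. Of the 73 measured segment genes, 0 were called, 44 were higher at the unadjusted level and 24 were fully separate. The median log2 difference of the 4 was 0.50, against -0.0034 over all genes. Without animals 60 and 64 the SE of each chain fell to between 0.0458 and 0.0829 while the differences stayed at 0.44 to 0.55. All 4 were then called and fully separate (limma adjusted p = 0.00284 for Ifnar1, 0.0387 for Ifnar2, 0.00591 for Ifngr2 and 0.00484 for Il10rb). Of all genes, 0.148% were called higher and 1.36% were separate in that direction. Of the 73 segment genes, 27 were then called higher and 45 were fully separate.

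In hippocampus the triplicated chains were higher again, by 1.28-fold to 1.38-fold, and Ifnar1 rose past the threshold over all genes. Ifnar1 read 8.68, 8.80, 8.77, 8.72 and 8.84 in WT animals 60, 62, 65, 95 and 98. Its Ts1Cje signals ran from 8.96 (animal 64) to 9.35 with a median of 9.24, so the genotypes were fully separate. The difference was 0.46 ± 0.0706 (SE, n = 6 and 5; 1.38-fold; limma adjusted p = 0.0395). The call for Ifnar1 was lost in 10 of 11 omissions of a single animal, each of 60, 62, 65, 95, 98, 61, 63, 87, 94 and 97 (adjusted p = 0.0948 to 0.170), while the difference stayed between 0.43 and 0.51. Without 64 its adjusted p was 0.00246 and 3 of the 4 chains were called, and without 60 and 64 it was 0.00415.

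Ifngr2 separated the hippocampus arrays as fully, with 10.55 to 10.73 in WT and 10.91 to 11.15 in Ts1Cje. Its difference of 0.35 ± 0.0604 (SE; 1.28-fold) had an adjusted p of 0.0664, and 0.0343 without animal 64. Ifnar2 read 8.32 to 8.68 in WT and 8.89 to 9.17 in 5 Ts1Cje animals, with 8.53 in animal 64 inside the WT range. Its difference was 0.43 ± 0.109 (SE; 1.35-fold; limma adjusted p = 0.580), and without animals 60 and 64 the difference was 0.46 ± 0.0596 (limma adjusted p = 0.0186). Il10rb stood at 7.27 to 7.62 in WT and 7.58 to 8.02 in Ts1Cje. The WT array that reached 7.62 was that of animal 60, and the Ts1Cje array at 7.58, animal 94, lay below it. The Il10rb difference of 0.38 ± 0.0917 (SE; 1.30-fold) had an adjusted p of 0.488, and 0.149 without animals 60 and 64.

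Thus 1 of 4 triplicated chains passed in hippocampus, where 0.104% of all genes were called higher, and 4 of 4 had an unadjusted p under 0.05, where 2.02% of all genes were higher at that level. Complete separation held for 2 of 4 and for 0.38% of all genes. Of the 73 segment genes, 17 were called higher, 46 were higher at the unadjusted level and 35 were fully separate. The median difference of the 4 chains was 0.40, against -0.0064 over all genes. Without animals 60 and 64, 2 of the 4 were called, Ifnar1 and Ifnar2, against 0.153% of all genes, and all 4 were fully separate, against 1.5%. Of the 73 segment genes, 26 were then called higher and 46 were fully separate.

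A signal in proportion to 3 copies over 2 would differ by 0.585 on the log2 scale. That value lay inside the 95% interval of all 4 chains in cortex, where the intervals were 0.25 to 0.71 for Ifnar1, 0.24 to 0.94 for Ifnar2, 0.31 to 0.70 for Ifngr2 and 0.19 to 0.78 for Il10rb. In hippocampus it lay inside the intervals of Ifnar1 (0.31 to 0.61) and Ifnar2 (0.19 to 0.67) and above those of Ifngr2 (0.22 to 0.49) and Il10rb (0.18 to 0.58). Proportionality of array signal to RNA amount was not tested. Without animals 60 and 64 the cortex intervals of Ifnar1, Ifngr2 and Il10rb ended below 0.585, at 0.57, 0.56 and 0.56, and the hippocampus interval of Il10rb reached 0.65.

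**Figure D2:**
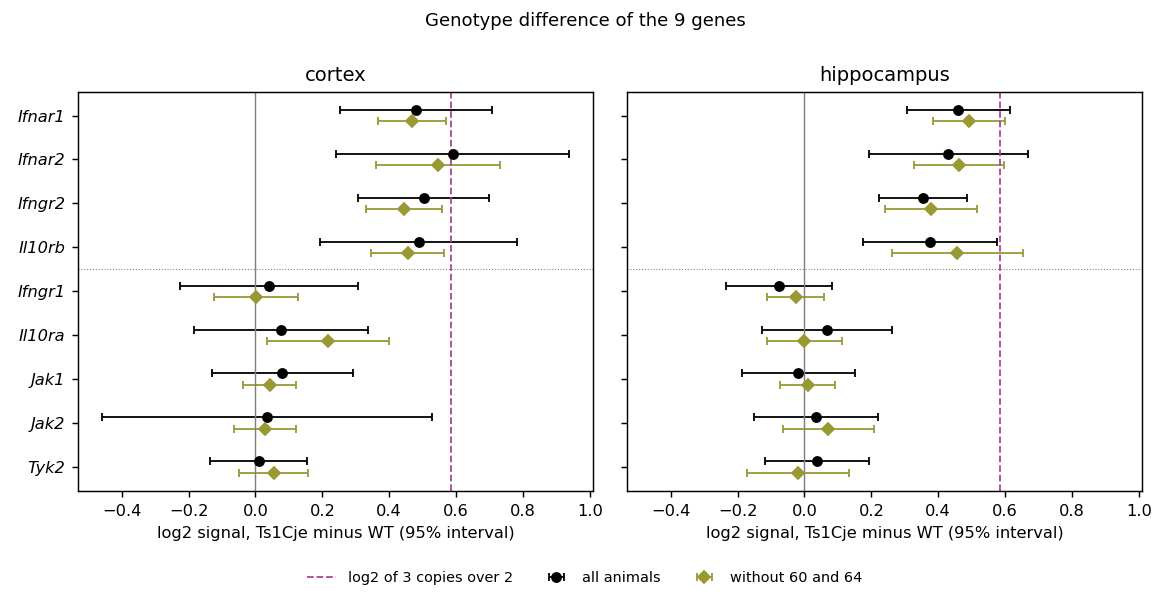
Log2 difference, Ts1Cje minus WT, of each of the 9 genes (rows) in cortex (left) and hippocampus (right), with 95% intervals from limma, for all animals (black circles) and without animals 60 and 64 (olive diamonds); the dashed line marks 0.585, the log2 of 3 copies over 2. The 4 triplicated chains lie between 0.35 and 0.59 with intervals above 0, and with all animals the intervals of the 5 other genes span 0 in both regions.

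The partner chains, present in 2 copies, showed no difference that passed in either region. Ifngr1, the interferon gamma-binding chain, read 8.40 to 8.98 in WT and 8.54 to 9.09 in Ts1Cje cortex, and its genotypes overlapped throughout. The difference was 0.042 ± 0.121 (SE), with a 95% interval of -0.22 to 0.31, in cortex and -0.075 ± 0.0725 (SE), with an interval of -0.23 to 0.084, in hippocampus. Without animals 60 and 64 the values were 0.0019 and -0.026.

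Il10ra, the IL-10-binding chain, lay below the array median in both regions. Its cortex signals were 7.42, 6.80, 6.98, 7.17 and 7.15 in WT animals 60, 62, 65, 95 and 98, and 6.87 to 7.41 in Ts1Cje. WT animal 60 held the highest signal of the gene in cortex and Ts1Cje animal 64 the lowest of its genotype. The difference was 0.075 ± 0.119 (SE; limma adjusted p = 1.00) with all animals and 0.22 ± 0.0825 (SE; limma adjusted p = 0.815) without those 2. In hippocampus it was 0.068 ± 0.0889 (SE), and -0.00079 ± 0.0498 without them. Of 12 microglial markers, 10 had a higher mean in Ts1Cje cortex, where 48.5% of all genes did. None of the 12 was called (0.00494% of all genes were), and the median difference of the 12 was 0.091. The mean of the 12 ranged from 8.47 to 8.60 over WT and from 8.49 to 8.73 over Ts1Cje cortex arrays, its lowest marker being Aif1 at a mean of 6.85 in WT. In hippocampus 5 of 12 were higher, against 46.3% of all genes, and the median was -0.015. Without animals 60 and 64, 10 markers were higher in cortex and 6 in hippocampus, against 53% and 46.8% of all genes. The marker medians were then 0.10 and -0.0010. In cortex 3 markers were then higher at a limma unadjusted p under 0.05, against 3.51% of all genes. Marker lists of other cell types leaned upward as well in Ts1Cje cortex with all animals. The counts were 6 of 8 for endothelium, 4 of 5 for oligodendrocytes and 4 of 6 for neurons. Those of astrocytes (1 of 7), choroid plexus (2 of 5) and lymphocytes (1 of 5) leaned the other way. The part of these markers in the Il10ra values was not tested.

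Jak1, the kinase common to all 3 receptors, read 10.97 to 11.02 in the cortex of 4 WT animals and 10.99 to 11.07 in 5 Ts1Cje animals, with 10.56 in animal 60 and 10.74 in animal 64. The genotype difference was 0.080 ± 0.0965 (SE) in cortex and -0.018 ± 0.0779 (SE) in hippocampus, where WT arrays read 10.29 to 10.48 and Ts1Cje arrays 10.10 to 10.53.

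Jak2, the kinase of Ifngr2, was where animals 60 and 64 differed most from the rest. Apart from them its cortex signals ran from 9.16 to 9.27 in WT and from 9.19 to 9.31 in Ts1Cje, whereas animal 60 read 8.34 and animal 64 read 8.22. With all animals the difference of 0.034 ± 0.225 (SE) had an interval of -0.46 to 0.53, and without these 2 it was 0.028 ± 0.0419 (SE; interval -0.065 to 0.12). In hippocampus it was 0.034 ± 0.0850 (SE).

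Tyk2, the kinase of Ifnar1 and Il10rb, had the narrowest spread in WT cortex, where its 5 arrays read 7.53 to 7.63. Ts1Cje cortex read 7.41 to 7.71, and the difference was 0.010 ± 0.0661 (SE; interval -0.13 to 0.16). In hippocampus the ranges were 6.91 to 7.12 and 6.93 to 7.30, with a difference of 0.038 ± 0.0713 (SE). Of the 5 genes outside the segment, 0 were called in either region by limma, with all animals (0.114% of all genes called in hippocampus) or without 60 and 64 (0.158% in cortex and 0.183% in hippocampus). With all animals 0 had an unadjusted p under 0.05, against 1.3% of all genes in cortex and 3.71% in hippocampus. Without 60 and 64 that held for 1, Il10ra in cortex, against 5.97% and 8.37%. For all 5 the 95% interval with all animals ended below 0.585 in both regions.

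**Figure D3:**
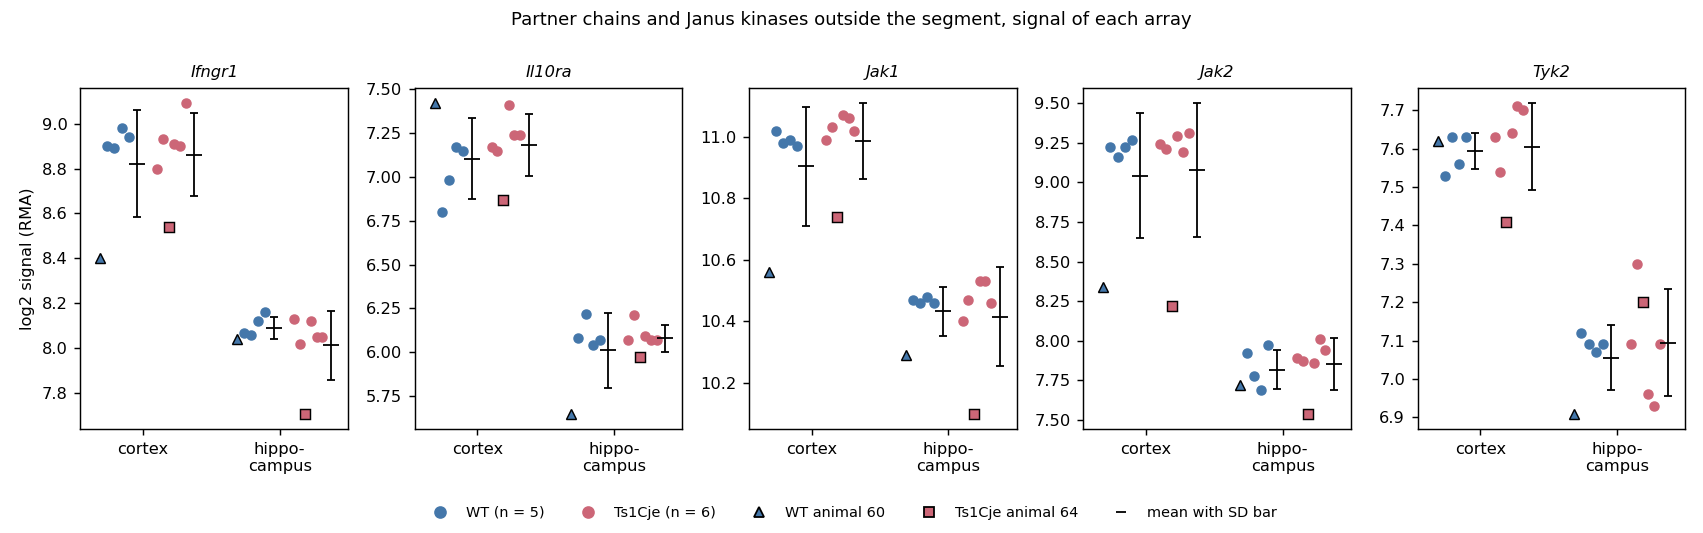
Log2 signal of the partner chains Ifngr1 and Il10ra and of the kinases Jak1, Jak2 and Tyk2 on each array (points; triangle, WT animal 60; square, Ts1Cje animal 64), by region and genotype, with the mean and SD as a bar to the right of each group (n = 5 WT, 6 Ts1Cje; vertical axes differ between panels and do not start at 0). WT and Ts1Cje arrays overlap in every panel, and animals 60 and 64 are the lowest for Jak1 in both regions and for Jak2 in cortex.

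A further comparison asked whether the 2 chains of a receptor changed unequally. The difference between their log2 signals was taken within each array and compared between genotypes by exact permutation (two-sided, 462 ways to divide the 11 animals), with Benjamini-Hochberg adjustment over the 6 tests. For interferon gamma, Ifngr2 minus Ifngr1 in cortex was 1.95 ± 0.0758 (SD, n = 5) in WT and 2.41 ± 0.168 (SD, n = 6) in Ts1Cje, with 1.84 to 2.04 against 2.13 to 2.62. In hippocampus it was 2.58 ± 0.113 (SD) in WT, with 2.40 to 2.67 in WT against 2.86 to 3.20 in Ts1Cje (SD 0.134). The difference widened by 0.46 in cortex (exact permutation p = 0.00433, adjusted p = 0.0130) and by 0.43 in hippocampus (exact permutation p = 0.00216, the smallest that these divisions can give; adjusted p = 0.0130), with 6 of 6 Ts1Cje animals above every WT animal in each region.

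For IL-10, Il10rb minus Il10ra in cortex averaged 0.84 ± 0.449 (SD) in the 5 WT animals and 1.25 ± 0.110 (SD) in the 6 Ts1Cje animals, wider by 0.41 (exact permutation p = 0.00866, adjusted p = 0.0173). That value leaned on WT animal 60, which read 0.07 against 0.92 to 1.22 in the other WT animals. Without it the difference between genotypes was 0.22 (exact permutation adjusted p = 0.05), and the adjusted p was 0.0635 without Ts1Cje animal 61, 63 or 97. In hippocampus the genotype difference was 0.31, with means of 1.44 ± 0.316 in WT and 1.75 ± 0.169 in Ts1Cje (SD; exact permutation p = 0.0714, adjusted p = 0.107). Animal 60 again stood apart there, at 1.97 against 1.17 to 1.44, and without it the difference was 0.44 (exact permutation adjusted p = 0.00952).

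For the type I receptor, whose chains are both triplicated, Ifnar1 minus Ifnar2 differed between genotypes by -0.11 in cortex (exact permutation p = 0.325, adjusted p = 0.390) and by 0.031 in hippocampus (exact permutation p = 0.686, adjusted p = 0.686). The genotypes overlapped, at 0.07 to 0.48 in WT and -0.17 to 0.30 in Ts1Cje cortex, and at 0.09 to 0.36 and 0.06 to 0.43 in hippocampus. A p that misses the threshold does not show that the chains changed equally.

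**Figure D4:**
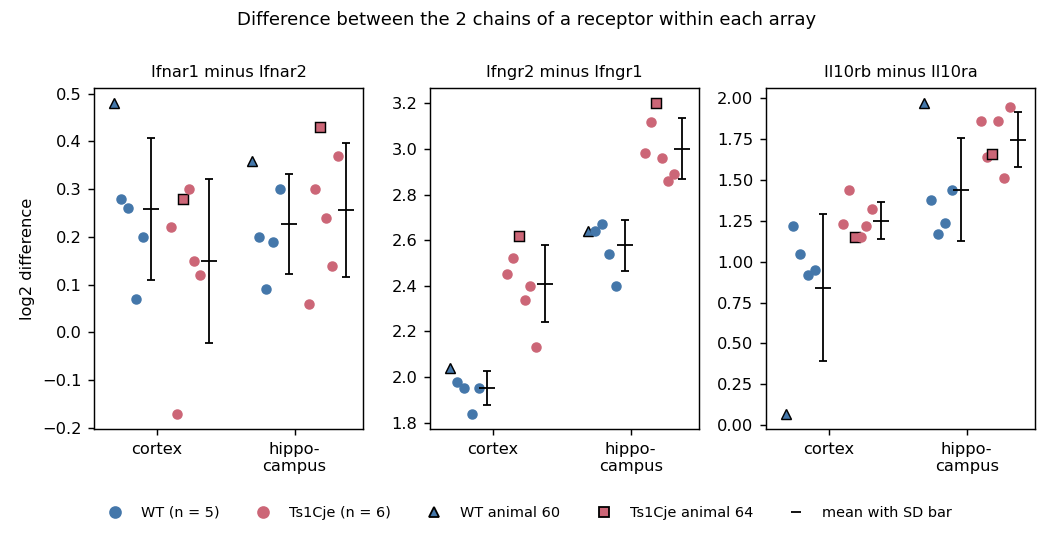
Difference between the log2 signals of the 2 chains of the type I interferon (left), interferon gamma (middle) and IL-10 (right) receptors within each array (points; triangle, WT animal 60; square, Ts1Cje animal 64), by region and genotype, with the mean and SD as a bar to the right of each group (n = 5 WT, 6 Ts1Cje; vertical axes differ between panels). For Ifngr2 minus Ifngr1 every Ts1Cje array lies above every WT array of its region, and for Ifnar1 minus Ifnar2 the genotypes overlap.

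The genotype difference did not pass a test of unequal size between regions for any of the 9 genes (limma interaction, adjusted p = 1.00 for each, with 0 genes called, 0%, and 1.28% of all genes at an unadjusted p under 0.05). Hippocampus minus cortex, the interaction was -0.021 ± 0.126 (SE) for Ifnar1, -0.16 ± 0.200 for Ifnar2, -0.15 ± 0.107 for Ifngr2 and -0.11 ± 0.167 for Il10rb. The 95% intervals ran from -0.28 to 0.24, from -0.58 to 0.26, from -0.37 to 0.073 and from -0.46 to 0.24. With each animal as a fixed block the SE was 0.0728 for Ifnar1, 0.122 for Ifnar2, 0.0952 for Ifngr2 and 0.152 for Il10rb, and the test called none of the 9 (adjusted p = 0.909 to 0.999).

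Levels were then compared between regions after centring each array on its median, because the deposited values lay lower in hippocampus by a median of -0.63 over all genes. Region and extraction kit cannot be told apart, since each region had its own kit. Ifngr2 was higher in hippocampus by 0.45 ± 0.0574 (SE; limma adjusted p = 1.66e-06) in 11 of 11 animals. Il10ra was lower there by -0.47 ± 0.0747 (adjusted p = 2.71e-05), with 0 of 11 animals higher, and Jak2 was lower by -0.60 ± 0.128 (adjusted p = 0.000727), with 1 of 11 higher. These 3 of 9 genes were called, against 41.4% of all genes, with 20.2% higher and 21.2% lower in hippocampus. The other 6 ranged from -0.16 (Ifngr1) to 0.11 (Jak1 and Tyk2). With each animal as a fixed block, Ifngr1 (adjusted p = 0.0171) and Jak1 (0.0244) also passed, while Tyk2 did not (0.105). With a random block Ifngr1 (0.0164) and Tyk2 (0.0352) passed and Jak1 did not (0.0516). Without centring, Ifngr2 read lower in hippocampus by -0.18. The within-array difference Ifngr2 minus Ifngr1, which does not depend on a shift of the whole array, was 1.84 to 2.04 in WT cortex and 2.40 to 2.67 in WT hippocampus, with no overlap.

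Along the segment, the receptor chains lay beside genes with small differences on one side and genes with like differences on the other. On the side of Sod1, the 4 nearest measured genes were 4932438H23Rik, Gm9881, Olig2 and Olig1, with cortex differences of -0.014, 0.024, 0.11 and 0.20. Their hippocampus differences were 0.11, -0.025, 0.13 and 0.15. In WT cortex 4932438H23Rik and Gm9881 had mean signals of 5.88 and 6.02, below the median over all genes of 7.58. Farther on that side, Paxbp1 and Synj1 differed by 0.43 each in cortex and by 0.33 and 0.41 in hippocampus. Olig1 and Olig2 are transcription factors of the oligodendrocyte lineage. On the other side were Tmem50b, a membrane protein, Dnajc28, of the DnaJ family, Gart, a purine synthesis enzyme, and Son, a splicing factor. Those 4 differed by 0.38, 0.51, 0.38 and 0.44 in cortex. In hippocampus the values were 0.34, 0.33, 0.30 and 0.45, where Gart and Son were called (adjusted p = 0.0374 and 0.0444). Dnajc28, Gart and Son were called without animals 60 and 64 in cortex (adjusted p = 0.00284, 0.00516 and 0.00516) and in hippocampus (0.0280, 0.0195 and 0.00761). Among the 73 segment genes, Ifnar2 had the highest value in cortex and the 12th in hippocampus, and Ifnar1 had the 14th and the 5th. Ranks of Ifngr2 were 10 and 24 and those of Il10rb 11 and 20. The segment's median difference was 0.33 in cortex and 0.29 in hippocampus.

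**Figure D5:**
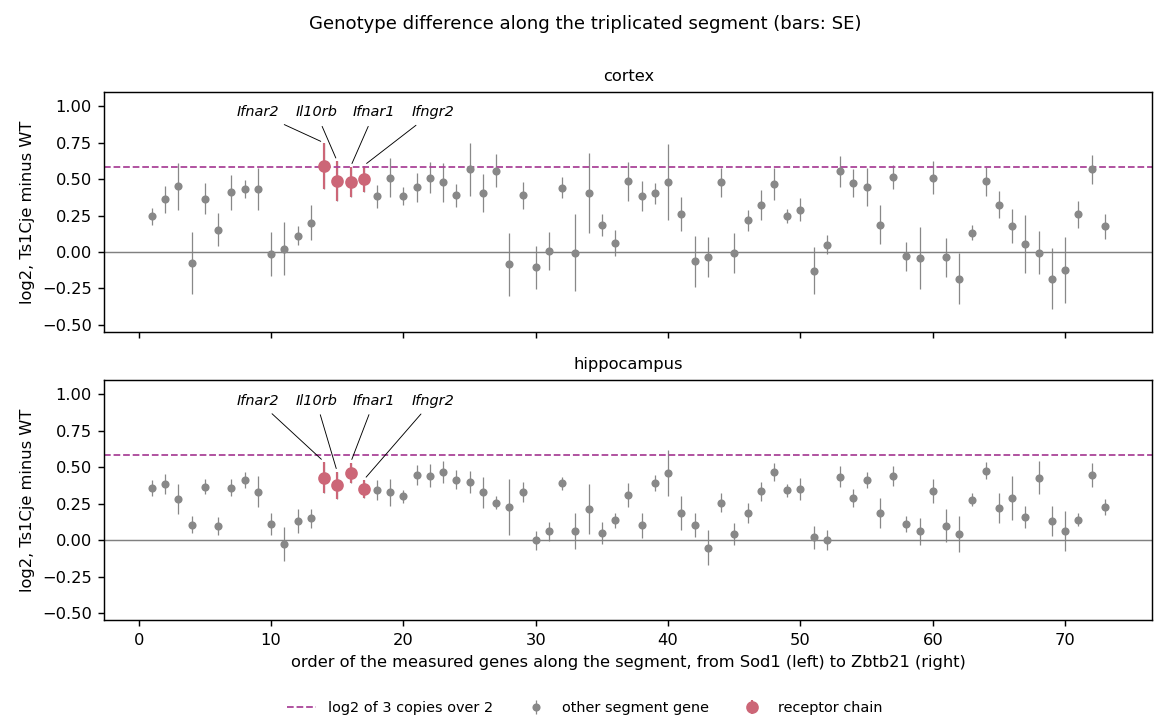
Log2 difference, Ts1Cje minus WT, with SE bars, of the 73 measured genes of the triplicated segment in their order along chromosome 16 (horizontal axis, rank) in cortex (top) and hippocampus (bottom); red points are the 4 receptor chains, and the dashed line marks 0.585, the log2 of 3 copies over 2. The receptor chains occupy ranks 14 to 17 and lie between 0.48 and 0.59 in cortex and between 0.35 and 0.46 in hippocampus.

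Genes whose signal followed each triplicated chain most closely were ranked by Pearson's r over the 18 arrays of the 9 animals other than 60 and 64, each gene centred on its regional mean. Since both genotypes entered, the copy number itself is part of the likeness, and the arrays come in pairs from an animal. Ifnar1 was most like Vps26c (r = 0.980), Morc3 (0.976) and Dscam (0.975). Ifnar2 was most like Ifngr2 (0.953), Gart (0.943) and Cfap298 (0.941), and Ifngr2 was most like Gart (0.955), Ifnar2 (0.953) and Cfap298 (0.951). Il10rb was most like Morc3 (0.950), Ifnar1 (0.943) and Urb1 (0.927). All of these lie in the segment. Outside it the closest gene was Dnah11, a ciliary dynein gene on chromosome 12, for Ifnar1 (0.971), Ifngr2 (0.929) and Il10rb (0.909), and Coasy, an enzyme of coenzyme A synthesis, for Ifnar2 (0.925). With all 22 arrays the closest genes changed in part, to Vps26c for Ifnar1 (0.982), Cbr1 for Ifnar2 (0.948), Rcan1 for Ifngr2 (0.945) and Ifnar1 for Il10rb (0.923). The closest gene outside the segment was then another for each chain, Il33 for Ifnar1 (0.852), Dazl for Ifnar2 (0.900), Cyb5r1 for Ifngr2 (0.857) and Cmbl for Il10rb (0.883).

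Other genes of the pathway were taken from lists, and limma called 0 of them in either region, with or without animals 60 and 64. Of all genes, 0.00494% in cortex and 0.114% in hippocampus were called with all animals, and 0.158% and 0.183% without those 2. At such shares, 0 calls does not set these lists apart from all genes. Of the 21 measured ligands, interferons and IL-10 relatives, 5 had a higher mean in Ts1Cje cortex and 12 in hippocampus. The ligand counts without animals 60 and 64 were 5 and 7, where 53% and 46.8% of all genes had a higher mean, and the hippocampus median turned from 0.014 to -0.034. Ifna9 had the lowest p of the list in cortex (-0.31 ± 0.214, SE), and Ifna12 in hippocampus (0.33 ± 0.138, SE; unadjusted p = 0.0331), both at signals under the array medians. Among the 5 other class II chains, 0 were higher in cortex and 3 in hippocampus. Ifnlr1, the chain that joins Il10rb for type III interferons, stood at -0.076 ± 0.229 and -0.12 ± 0.138 (SE). Il22ra2, a soluble receptor for IL-22, stood at -0.11 ± 0.144 and 0.025 ± 0.102 (SE). Il20ra, which joins other chains for IL-10 relatives, stood at -0.047 ± 0.0795 in cortex and 0.028 ± 0.0991 in hippocampus. Of 27 other receptors that use Janus kinases, 13 had a higher mean in cortex and 14 in hippocampus, and 13 and 9 without animals 60 and 64. Their median differences with all animals were -0.012 and 0.0012 (without those 2, -0.00082 and -0.031), with Il6st, the shared signal chain of the IL-6 family, at 0.026 ± 0.0856 and -0.050 ± 0.0739 (SE). The lowest p of that list belonged to Il13ra1 in cortex (0.29 ± 0.207, SE) and to Il6ra, the IL-6-binding chain, in hippocampus (-0.12 ± 0.0558, SE; unadjusted p = 0.0483). Jak3, the kinase of lymphocyte receptors, stood at 0.019 ± 0.0642 in cortex and 0.030 ± 0.0450 in hippocampus.

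Downstream of the receptors, the 7 measured genes of the STAT and Irf9 list had medians of 0.010 in cortex and 0.091 in hippocampus. Irf9, a DNA-binding part of the factor that type I interferon activates, had the lowest p of that list in cortex. Its cortex signal was 7.32 ± 0.181 (SD) in WT and 7.69 ± 0.178 (SD) in Ts1Cje, a difference of 0.37 ± 0.107 (SE; limma unadjusted p = 0.00525, adjusted p = 1.00) with 5 of 6 Ts1Cje arrays above every WT array. In hippocampus it differed by 0.12 ± 0.116. Stat2 stood at -0.034 ± 0.0988 and 0.091 ± 0.0799 and Stat3 at 0.063 ± 0.0877 and -0.048 ± 0.0715 (SE). Isg15 was not analysed here. Stat4 had the lowest p in hippocampus (0.17 ± 0.0818, SE), where its WT mean of 3.71 lay below the array medians. The medians of the STAT and Irf9 list without animals 60 and 64 were 0.050 and 0.026. Among the 7 interferon regulatory factors, 2 had a higher mean in Ts1Cje cortex and 3 in hippocampus, and without animals 60 and 64 the counts were 5 and 4, with the cortex median at 0.057 in place of -0.0043. Irf7 stood at 0.19 ± 0.150 and 0.31 ± 0.155, and Irf1 at -0.11 ± 0.0705 and -0.0024 ± 0.0588 (SE).

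Of the 20 negative regulators, which damp receptor or kinase activity, 11 had a higher mean in cortex and 6 in hippocampus, and 11 and 9 without animals 60 and 64. Usp18, a brake on Ifnar2 that interferon induces, stood at 0.25 ± 0.142 and 0.11 ± 0.181 (SE). Socs1 stood at -0.0044 ± 0.132 and -0.13 ± 0.103, Socs3 at -0.12 ± 0.146 and -0.022 ± 0.130, and Pias3, an inhibitor of Stat3, at -0.034 ± 0.0781 and -0.20 ± 0.0703 (SE; unadjusted p = 0.0131 in hippocampus).

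The 54 measured interferon-stimulated genes had a higher mean in Ts1Cje for 44 members in cortex and 42 in hippocampus, where 48.5% and 46.3% of all genes were above 0. Their median differences were 0.12 and 0.090. At an unadjusted p under 0.05, 7 were higher and 0 lower in cortex, and 3 higher and 0 lower in hippocampus, where 0.889% and 2.02% of all genes were higher and 0.41% and 1.69% lower at that level. With animals 60 and 64 left out, 14 were higher in cortex and 6 in hippocampus, against 3.51% and 4.43% of all genes. The lowest p in cortex belonged to Lgals3bp, a secreted glycoprotein (0.48 ± 0.118, SE; unadjusted p = 0.00168, adjusted p = 1.00), and in hippocampus to Mx2 (0.43 ± 0.111; unadjusted p = 0.00227, adjusted p = 0.611). Mx2 and Mx1, antiviral GTPases, lie in the triplicated segment themselves. Among the 52 interferon-stimulated genes outside the segment, 43 in cortex and 40 in hippocampus had a higher mean, with medians of 0.12 and 0.086. At a limma unadjusted p under 0.05, 7 and 2 of the 52 were higher, and 14 and 4 without animals 60 and 64. Mx2 read 4.14 ± 0.137 (SD) in WT and 4.57 ± 0.237 in Ts1Cje hippocampus, with 6 of 6 Ts1Cje arrays above every WT array, and stood at -0.0046 ± 0.146 (SE) in cortex. Mx1 stood at 0.18 ± 0.115 and 0.29 ± 0.151. H2-K1, a class I histocompatibility gene, differed by 0.65 ± 0.218 in cortex and 0.54 ± 0.218 (SE) in hippocampus, with 4 of 6 Ts1Cje arrays above every WT array in each, and at 0.47 and 0.31 without animals 60 and 64. B2m, its light chain, stood at 0.26 ± 0.199 and 0.19 ± 0.131 (SE).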

How the data were processed

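Arrays of 6 Ts1Cje and 5 WT animals, 1 per region, were grouped by the titles in the labels. Per the submitters' processing notes the authors used RMA, and the deposited values are log2 signals, 1 per array and feature. The version of RMA and the array definition behind the features were not stated in the sources, nor is it stated whether both regions entered the same normalization. RMA corrects background and equalizes arrays, which can compress differences of dim genes. RNA had been isolated with a different kit for each region, per the labels' protocols. For 2 arrays the title names WT animal 60 and the description 61. The title was followed.

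Of 21225 features, 20239 carried 1 gene symbol through the platform annotation and were tested, and 986 carried none. RefSeq's table for GRCm38.p6 gave chromosomes, gene order and the ends of the printed promoter stretches. It also gave the 73 segment genes, those on chromosome 16 that start after Sod1, up to and including Zbtb21. Genotype was fitted within a region with limma 3.58.1 in R 4.3.3 (lmFit, eBayes, two-sided, Benjamini-Hochberg over all 20239 genes, threshold 0.05), and regions and the interaction on all 22 arrays in 4 groups. The genotype fit within a region was tested on simulated data with independent noise, and the permutation code on a case of known answer. Neither held arrays that stood apart as those of animals 60 and 64 did. Region, interaction and block fits were not simulated. The members, the lists and the setting without animals 60 and 64 were chosen with earlier results of these data known. Named genes were the 9 members, 18 pathway genes fixed by name, the gene of lowest p in each list and region, the 4 nearest measured genes on each side, and the genes most like each triplicated chain. Pairing comes from the animal number in the labels. As a check, deviations from group means were correlated across genes between an animal's cortex and hippocampus, and r was 0.265 at the median, lowest 0.0523 and highest 0.761. No pair of arrays was identical (highest r 0.998). Alternatives were another prior, array weights, quantile normalization, median centring, a filter on dim genes, all features, a single fit, the animal as a block and leaving out animals.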

Additional observations from a re-analysis of the deposited data

Results flagged for a closer look

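In 16 of 36 groups of arrays (9 genes in 4 groups) a single array lay farther from the rest of its group than Dixon's test allows, where chance gives about 1 in 20 groups. Animal 60 gave 9 of these and animal 64 gave 7, all of them the lowest array of their group. In WT cortex animal 60 read 8.99 for Ifnar1, 8.51 for Ifnar2, 10.45 for Ifngr2, 7.49 for Il10rb, 8.40 for Ifngr1, 10.56 for Jak1 and 8.34 for Jak2. In WT hippocampus it read 10.29 for Jak1 and 6.91 for Tyk2. In Ts1Cje cortex animal 64 read 9.46 for Ifnar1, 8.02 for Il10rb, 10.74 for Jak1 and 8.22 for Jak2, and in hippocampus it read 7.71 for Ifngr1, 10.10 for Jak1 and 7.54 for Jak2. The largest gap was that of Jak2 in cortex, where the next lowest Ts1Cje array read 9.19. Both animals' arrays also had the smallest spread of log2 values over all features.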

How the results depend on the processing

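In cortex and hippocampus the 4 triplicated chains were higher in Ts1Cje under every alternative and omission run, and their median difference stayed within 0.41 to 0.56 (cortex) and 0.37 to 0.46 (hippocampus), but the number called varied. In cortex it was 0 with all animals and in each omission of a single animal, 2 after quantile normalization or in a single fit on all 22 arrays, and 4 with array weights or without animals 60 and 64. In hippocampus it was 1, with a range of 0 to 3 over omissions of a single animal, 2 with a trend and robust prior, quantile normalization, median centring, a filter on dim genes or animals 60 and 64 left out, and 4 with array weights. Of all genes, 0.00494% in cortex and 0.114% in hippocampus were called with all animals, and 0.158% and 0.183% without animals 60 and 64. That share was not taken under the other settings, so the counts there cannot be set against it. None of the 5 other genes was called in any genotype setting, and their median in hippocampus moved from 0.034 to -0.00079 without animals 60 and 64. No interaction was called for the 9 genes under any alternative, the replicate block included.

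Without centring on array medians, hippocampus minus cortex reversed for Ifnar1 (-0.54), Ifnar2 (-0.58), Ifngr2 (-0.18), Il10rb (-0.55), Jak1 (-0.52) and Tyk2 (-0.52), and 4 triplicated chains and 5 other genes were called, against 1 and 2 in the centred fit. Quantile normalization called 2 and 4. A replicate block by animal called 4 other genes, namely Ifngr1, Il10ra and Jak2 in either form, with Jak1 when fixed and Tyk2 when random. Without animals 60 and 64, 5 were called, and 2 to 4 over single omissions. The share of all genes called was taken for the centred fit only, at 41.4%. Counts from the other region fits therefore cannot be read as particular to these genes.

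Il10rb minus Il10ra differed between genotypes by 0.238 in cortex (adjusted p = 0.0714) and 0.458 in hippocampus (adjusted p = 0.0317, exact permutation) without animals 60 and 64, and by 0.219 to 0.507 and 0.241 to 0.441 over single omissions. The cause of these changes was not tested. Signal over background limits Mx1, Mx2 and, in hippocampus, Stat4, whose WT means lay below the array medians.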

Other observations

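Within groups, members varied together only in part. After each gene was centred on its group mean, Pearson's r over the 18 arrays of the 9 animals other than 60 and 64 was 0.646 for Ifnar2 with Ifngr2 and 0.569 for Ifnar1 with Il10rb, the highest of the 36 pairs. Ifnar1 with Ifnar2, the chains of the type I receptor, had an r of 0.071, and Ifngr2 with its kinase gene Jak2 had the lowest, -0.50. These values describe arrays that come in pairs from an animal and share region, and they carry no test.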
